A study of Sus scrofa with 13 samples.

Results

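The comparison set 8 pig livers that received human stromal cells after warm ischemia against 2 libraries of uninjured liver, 10 of the 13 libraries sequenced. It asked which genes still stood away from uninjured liver after ischemia, 6 h of reperfusion and cell infusion. The members were taken by their labels: all 4 livers of the arterial infusion group, all 4 of the portal infusion group, and baseline libraries 1a and 2. No measured value entered this rule, though it was set with earlier results of these data known.

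All animals were female Yorkshire pigs under anesthesia with an open abdomen. Baseline biopsies were taken before the liver vessels were clamped, with no ischemia and no cells. The infused livers had 45 min of total vascular exclusion and 6 h of reperfusion, and received 3000000 human bone marrow mesenchymal stromal cells (BM-MSCs, fibroblast-like cells that release immune-modulating factors) per kg bodyweight. The cells entered through the hepatic artery in the arterial infusion group and through the portal vein in the portal infusion group. The remaining 3 livers, the ischemic controls, had the same ischemia and reperfusion without cells, and their values are given only beside those of the infused livers. No group had the operation and its duration without clamping. Ischemia, reperfusion, hours of surgery and anesthesia, and the infused cells therefore all separate the infused livers from baseline and cannot be told apart. The labels do not say which animals gave the baseline libraries or that every library is a separate animal, and p-values measure only the spread between these samples. In whole tissue, fewer cells of a type and less RNA per cell cannot be told apart either. Reads of the human cells could be assigned to pig genes, and their share was not measured here.

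Clamping stops oxygen supply to hepatocytes, and the return of blood adds oxidative damage and a sterile inflammation. Cells answer with chaperones of the heat shock family, which hold unfolded proteins, and with targets of the hypoxia-inducible factors. Immediate early transcription factors are induced as well, as are NF-kB target genes, several of which shut the pathway off again. Hepatocytes otherwise carry the synthesis of bile acids, plasma proteins and urea, and the oxidation of fatty acids.

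The libraries held between 20563848 and 35949178 reads on genes in the infused livers and 30952737 and 26865538 at baseline 1a and 2. At an equal depth of 18975413 reads, 18874 and 18430 genes had a read at baseline and between 13572 and 18382 in the infused livers, with no overlap. The mitochondrial share of reads was 6.99% and 4.51% at baseline and between 5.58% and 22.0% in the infused livers. On the first principal component arterial 1, portal 1 and portal 4 stood apart from the other infused livers, so results are also given without these 3. The summed level of 10 hepatocyte markers (among them ALB, TTR and CPS1) was 57312 and 111711 CPM (counts scaled to a common library size) at baseline and between 30952 and 93083 in the infused livers, with no marker at 0 in every library of a group. The part of the lower gene number and of the mitochondrial share in the results was not tested. The libraries do not keep the strand of a read, so a gene and an overlapping antisense gene cannot be told apart.

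No gene passed the threshold. By the quasi-likelihood test of edgeR, adjusted after Benjamini and Hochberg, 0 of 16481 genes (0%) reached an adjusted p under 0.05, the smallest being 0.886. At an unadjusted p under 0.05 there were 403 genes with higher levels in the infused livers (2.45%) and 280 with lower levels (1.7%). By values alone, 707 genes (4.29%) had all 8 infused livers above both baseline libraries, and 951 (5.77%) had all 8 below. The median log2 fold change over all genes was -0.01. The spread between livers was wide, with a biological coefficient of variation of 0.729 over all genes, and baseline had only 2 libraries.

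Other tools did call genes. DESeq2 over the same 13 libraries called 17, of which 16 were higher, and 8 carried a symbol. They were HSPB1 (adjusted p of 0.00114), RGS1 and STC1 (0.00195 each), CXCR4 (0.00401), FMO5 (0.0203), MBNL3 (0.0250), H2AC6 (0.0314) and SLA (0.0488), and FMO5 was the lower one. The counts were 24 with DESeq2 over the 10 libraries compared, 49 with limma's voom and sample quality weights, and 25 with edgeR on unfiltered genes. The balance of directions differed between tools, with 23 of 24, 15 of 49 and 16 of 25 higher. DESeq2 over all libraries and voom shared 4 of their genes. Since the edgeR fit called none, differences below are given as values with unadjusted p from that fit, and no gene is called changed.

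**Figure D1:**
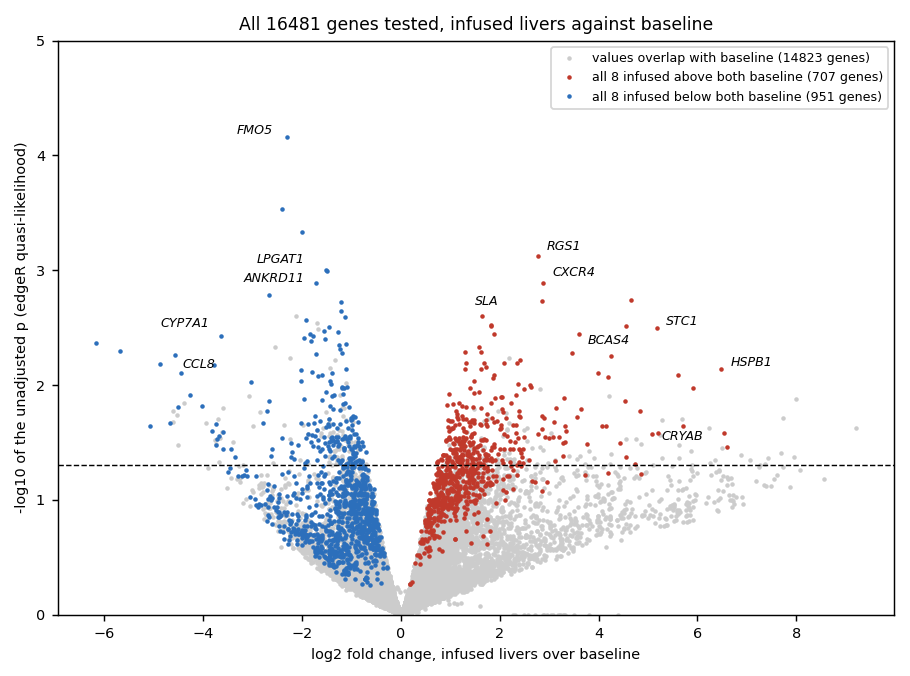
Each point is 1 of the 16481 genes tested, with the log2 fold change of infused livers over baseline on the x axis and -log10 of edgeR's unadjusted p on the y axis, where the dashed line marks the 0.05 level. The 707 genes lying wholly above baseline are red and the 951 wholly below are blue, FMO5 lies highest, and HSPB1 and STC1 lie far to the right.

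The heat shock genes stood furthest from baseline among the pathway lists. Of 23 members tested, 9 had all 8 infused livers above both baseline libraries, beside 4.29% of all genes, and 7 were higher at an unadjusted p under 0.05, beside 2.45%. The median log2 fold change of the list was 1.32, and 20 of 23 members had a positive one. Without arterial 1, portal 1 and portal 4, 17 of 23 had the remaining 5 livers above both baseline libraries, beside 7.65% of all genes, 10 were higher at an unadjusted p under 0.05, beside 1.73%, and the median was 1.01. In the ischemic controls the median over baseline was 1.27.

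HSPB1, a small heat shock protein that binds unfolded proteins and steadies actin, showed the largest difference of the list (chromosome 3, bases 10038074 to 10039441, on Sscrofa11.1 from RefSeq, as for all positions given). Its normalized count was 327 and 171 at baseline 1a and 2, and from 1141 to 108913 (median 9648) in the infused livers. The groups did not overlap, and the 3 highest livers were portal 1, arterial 1 and portal 4, the same livers that stood apart. The log2 fold change was 6.48 ± 2.08 (SE) with an unadjusted p of 0.00728, and 3.68 without those 3 livers. Here and below, the value after ± is an approximate standard error derived from the log2 fold change and the test statistic. CRYAB, a related small chaperone (chromosome 9, bases 39638505 to 39643530), had 385 and 275 at baseline and from 587 to 35018 (median 3189) in the infused livers. Its log2 fold change was 5.09 ± 2.07, and 3.11 without the 3 livers. HSPB8, which works with BAG3 to clear damaged proteins, had 610.1 and 897 at baseline and from 1157 to 4655 (median 2030) after infusion. All 8 livers lay above baseline for both, and the lowest infused liver for CRYAB was arterial 3.

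BAG3, a co-chaperone of HSP70, had normalized counts of 3501 and 2922 at baseline and from 4245 to 21050 (median 8751) in the infused livers. Its log2 fold change was 1.63 ± 0.52 with an unadjusted p of 0.00729, and 1.66 without the 3 livers. HSPE1, the mitochondrial co-chaperonin of HSPD1, had 3911 and 3548 at baseline and from 6100 to 14049 (median 8774) after infusion, without overlap. Its log2 fold change was 1.33 ± 0.42 with an unadjusted p of 0.00638. AHSA1, which activates HSP90, and FKBP4, an HSP90-bound immunophilin, had log2 fold changes of 1.32 ± 0.48 and 1.43 ± 0.59, and 0.85 and 0.82 without the 3 livers. HSP90AA1 itself, the inducible HSP90, had 0.94 with all 8 livers above baseline, and its unadjusted p was 0.0861. HSPA4L, an HSP110-type nucleotide exchange factor, had 2.06 with an unadjusted p of 0.0656.

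The inducible HSP70 genes outside the list, picked after their values were seen, lay on the same side. HSP70.2 had 773 and 857 at baseline and from 2327 to 28048 (median 8469) in the infused livers, with no overlap and a log2 fold change of 3.56 ± 1.35. HSPA6 had 47.1 and 70.7 at baseline and from 116 to 8827 (median 788), and its log2 fold change was 4.56 ± 2.05. HSP70 genes are near-identical in places, so the split of reads between them is uncertain. The lowest infused liver for HSP70.2 was portal 2, and the highest was arterial 2. HSPH1 and DNAJB1, 2 further stress-induced members picked in the same way, overlapped with baseline. Arterial 1 lay below baseline for both, at 723 for HSPH1 against 830.0 and 1194 and at 2169 for DNAJB1 against 2173 and 3607, and portal 4 lay inside the DNAJB1 range. Constitutive members had smaller values, with -0.49 for HSPA8 and -0.72 for HSP90AB1.

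**Figure D2:**
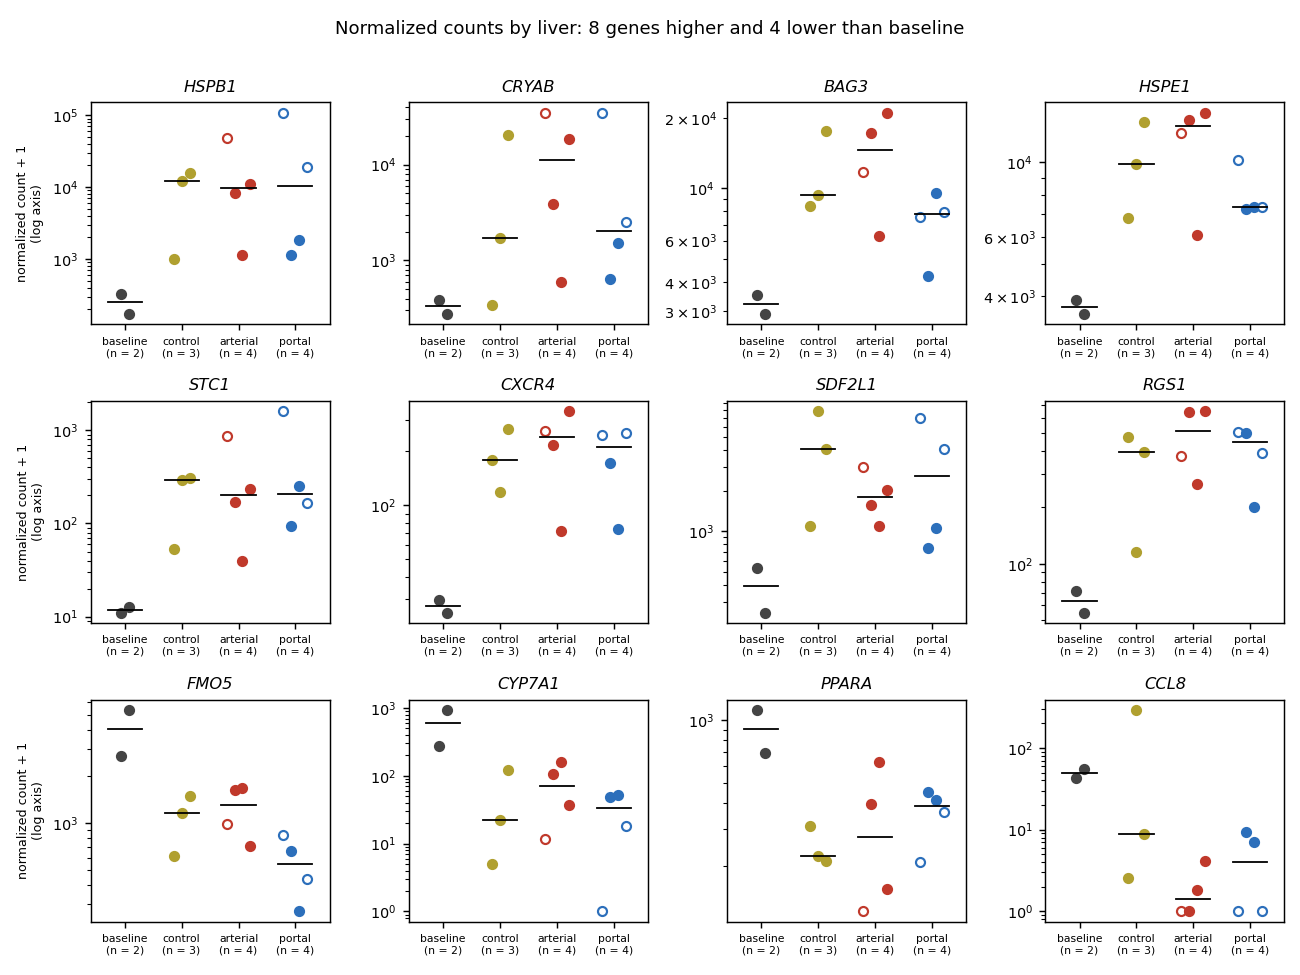
Each panel shows the normalized count plus 1 of a gene on a log axis, 1 point per library, by group, with the group median as a bar and arterial 1, portal 1 and portal 4 as open circles. For all 12 genes the 8 infused livers lie on 1 side of both baseline libraries, above for the upper 8 panels and below for FMO5, CYP7A1, PPARA and CCL8.

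Genes of the endoplasmic reticulum stress response split within their list. Of 24 members tested, 4 had all infused livers above baseline (beside 4.29% of all genes) and also an unadjusted p under 0.05 (beside 2.45% higher), 1 was lower at that p (beside 1.7%), and the list median was -0.04. SDF2L1, a luminal chaperone cofactor (chromosome 14, bases 50249607 to 50251636), had 529 and 247 at baseline and from 754 to 7020 (median 1794) after infusion, a log2 fold change of 2.61 ± 0.89. CRELD2, a secreted resident protein of the reticulum, had 1974 and 892 and from 2692 to 11181 (median 4793), a log2 fold change of 1.86 ± 0.61. The groups did not overlap for either. MANF, a neurotrophic factor held in the reticulum, had 1.07 and PPP1R15A, the phosphatase subunit that restarts translation, had 2.00. XBP1, the splicing-activated transcription factor of this response, was the lower one with -1.45 and an unadjusted p of 0.0467, named for its p rather than by the rule. The master chaperone HSPA5 had 0.32 and ATF4 -0.07. Without the 3 livers that stood apart, 11 of 24 members had all 5 livers above baseline, beside 7.65% of all genes, and the values were 1.62 for SDF2L1 and -0.92 for XBP1.

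Among hypoxia response genes, 5 of 30 were higher and 1 was lower at an unadjusted p under 0.05, beside 2.45% and 1.7% of all genes. STC1, stanniocalcin 1, a secreted regulator of calcium and mitochondrial metabolism (chromosome 14, bases 7952175 to 7961365), had normalized counts of 10.0 and 11.6 at baseline and from 38.9 to 1598 (median 199.8) in the infused livers. Portal 1 was the highest liver and arterial 3 the lowest, still above both baseline libraries. The log2 fold change was 5.17 ± 1.47 with an unadjusted p of 0.00321, and 3.86 without the 3 livers. CXCR4, the receptor for CXCL12 on leukocytes and progenitor cells (chromosome 15, bases 15663652 to 15666706), had 28.5 and 24.3 at baseline and from 70.6 to 333 (median 232) after infusion. Its log2 fold change was 2.88 ± 0.73 with an unadjusted p of 0.00129, and 2.59 without the 3 livers. CXCR4 was not tied to portal 1 in the way of STC1, since its highest value was in arterial 4.

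EGLN3, an oxygen sensor that is itself hypoxia-induced, had a log2 fold change of 1.97, and NDRG1, a stress-responsive growth regulator, 1.37. P4HA1, a collagen prolyl hydroxylase, was lower with -1.68. NDRG1 and P4HA1 were named for their p rather than by the rule. VEGFA, the vascular growth factor, had all 8 infused livers below baseline with -0.86 and an unadjusted p of 0.0896. The list median was 0.59, and 0.27 without the 3 livers. EPO, erythropoietin, went from 3.74 to 0.27 without them, and EGLN3 to 1.18. P4HA1 was -0.87 without baseline 2.

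Of 27 immediate early genes, 5 were higher at an unadjusted p under 0.05 and 0 were lower, beside 2.45% and 1.7% of all genes, with a list median of 0.39. FOSL1, a Fos-family partner of Jun (chromosome 2, bases 6430158 to 6436173), had 17.0 and 20.0 at baseline and from 53.5 to 812 (median 92.2) after infusion, all 8 livers above, with a log2 fold change of 3.65, and 2.24 without the 3 livers. NR4A3, an orphan nuclear receptor induced by stress, had 6.94 and 54.9 and from 61.6 to 519 (median 151), also without overlap and with baseline 2 close to the lowest infused liver. The other 3 were KLF2 (1.69), a shear-stress factor of endothelium, NR4A1 (1.33) and the small Maf protein MAFF (1.16), whose groups overlapped. Without the 3 livers that stood apart KLF2 was 0.76 with an unadjusted p of 0.102. NR4A1 ran from 0.68 without baseline 1a to 2.45 without baseline 2. FOS and EGR1, the usual markers of the class, had 1.26 and -0.11, and JUNB had 0.07.

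In the cytokine list the 3 genes with all infused livers above baseline were members or inhibitors of the NF-kB pathway, and none was a cytokine. NFKBIA, which holds NF-kB in the cytoplasm (chromosome 7, bases 64508119 to 64510754), had 727 and 609 at baseline and from 978 to 3718 (median 1722) in the infused livers, a log2 fold change of 1.41 ± 0.55 without overlap. TNFAIP3, the A20 ubiquitin-editing enzyme that ends NF-kB signalling, had 166 and 140.3 and from 199.6 to 1918 (median 359.9), with 1.85 ± 0.89 and an unadjusted p of 0.0553. NFKB2, a subunit of the pathway's slower branch, had 1.12 with an unadjusted p of 0.0303. IL1R1, the interleukin-1 receptor, lay below baseline in all 8 livers with -1.07, which was -0.62 without baseline 2, and IL6 had -1.95 with an unadjusted p of 0.215. Of 30 cytokine list members, 3 had all 8 livers above baseline and 2 all below, beside 4.29% and 5.77% of all genes. At an unadjusted p under 0.05, 2 were higher and 1 was lower, beside 2.45% and 1.7% of all genes.

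CCL8, a monocyte-attracting chemokine (chromosome 12, bases 40740468 to 40741970), was the furthest below baseline among the chemokines. Its normalized counts were 42.4 and 53.8 at baseline and from 0 to 8.41 (median 0.406) in the infused livers, with 4 of 8 at 0. No infused liver reached either baseline value. The log2 fold change was -4.57 ± 1.40 with an unadjusted p of 0.00548, and the fit's size depends on the zeros. The ischemic controls held 1.58, 289 and 7.95, so that controls 1 and 3 lay below baseline as well and control 2 above it. CCL5, a T cell and monocyte attractant, had 322 and 376 at baseline and from 469 to 2270 (median 903), all 8 livers above, with 1.67 ± 0.78, and 0.99 without the 3 livers that stood apart.

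TNF, IL1A, CCL4 and CCL3L1, picked after their values were seen, overlapped with baseline in the infused livers. TNF, a central inflammatory cytokine, had 30.9 and 45.4 at baseline and from 5.24 to 53.9 (median 31.6) in the infused livers, a log2 fold change of -0.32 ± 1.33, and -0.08 without baseline 2. In the ischemic controls it was 13.4, 4887 and 23.1, so that control 2 alone was high. CCL4, a macrophage chemokine, had 119.6 and 109.7 at baseline and a median of 236 after infusion, in a range of 51.5 to 441, and 37.2, 8372 and 412 in the controls. Control 2 was again the highest liver. IL1A was at 0 in 5 of 8 infused livers and at most 6.29 in the others, beside 3.09 and 13.7 at baseline.

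**Figure D3:**
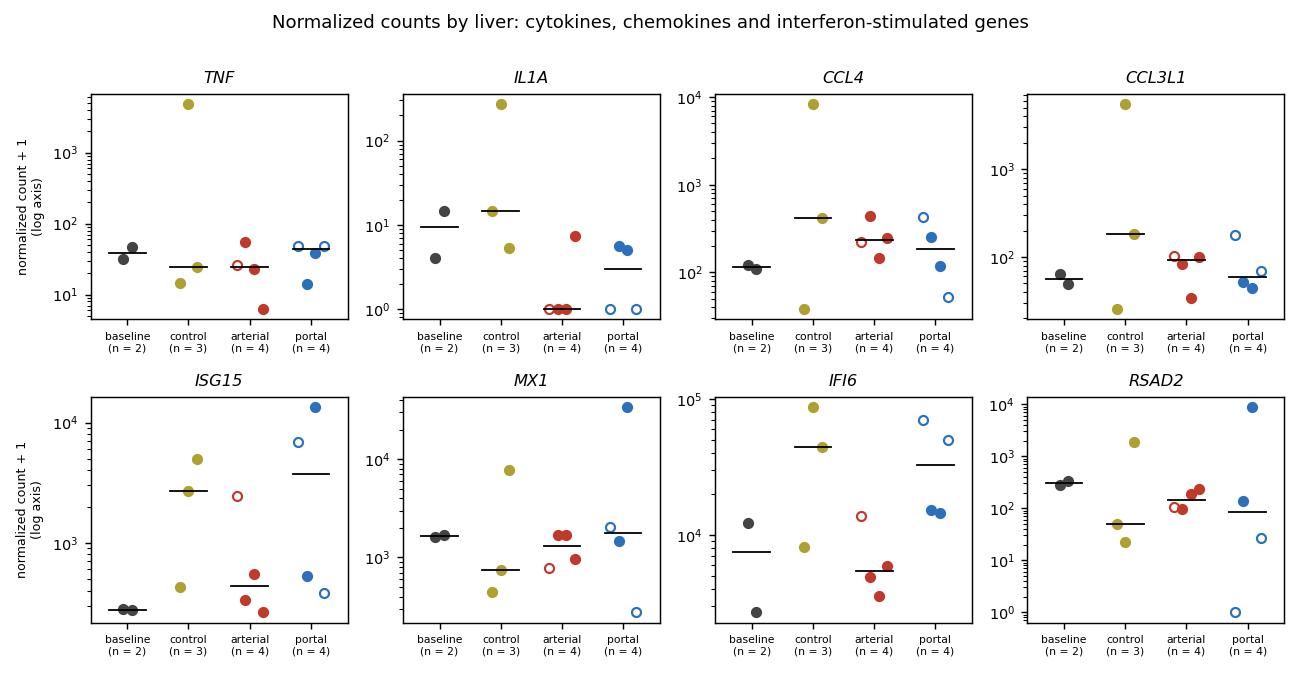
Normalized count plus 1 on a log axis for 4 cytokine or chemokine genes (upper panels) and 4 interferon-stimulated genes (lower panels), 1 point per library with the group median as a bar and arterial 1, portal 1 and portal 4 as open circles. TNF, IL1A, CCL4 and CCL3L1 are highest in ischemic control 2, and MX1 and RSAD2 are highest in portal 3.

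Several liver metabolic genes lay below baseline in every infused liver. FMO5, a flavin monooxygenase of hepatocytes (chromosome 4, bases 100336769 to 100372744), had the lowest p of all named genes. Its normalized counts were 2711 and 5353 at baseline and from 269 to 1696 (median 774) in the infused livers. The highest infused liver, arterial 3, was still below baseline 1a. The log2 fold change was -2.30 ± 0.42 with an unadjusted p of 6.93e-05, and -2.32 without the 3 livers that stood apart.

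Of 19 bile acid genes, 4 were lower at an unadjusted p under 0.05, beside 1.7% of all genes, and 0 were higher, beside 2.45%. CYP7A1, the enzyme that sets the rate of bile acid production (chromosome 4, bases 74343101 to 74372628), had 273 and 930.4 at baseline and from 0 to 161 (median 42.1) in the infused livers. Portal 1 had no read, and arterial 3 was the highest infused liver. The log2 fold change was -3.63 ± 1.05 with an unadjusted p of 0.00371, and -3.05 without the 3 livers. ABCB11, the bile salt export pump, had 1037 and 1553 at baseline and from 90.6 to 749 (median 560.2), a log2 fold change of -1.37 ± 0.58. ACOX2, a peroxisomal oxidase that shortens the bile acid side chain, had -1.03, and AKR1D1, the reductase of bile acid precursors, had -1.20, which was -0.77 without baseline 2 and -0.73 without the 3 livers. Arterial 3 just passed baseline 1a for AKR1D1, and the groups did not overlap for the other 3. CYP8B1, which makes cholic acid, had -1.53 with an unadjusted p of 0.164, and the list median was -0.20.

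Fatty acid oxidation genes were lower for 3 of 25 members and higher for 1 at an unadjusted p under 0.05, beside 1.7% and 2.45% of all genes, with a median of -0.26. PPARA, the nuclear receptor that drives this pathway, had 1116 and 691 at baseline and from 119.6 to 630.3 (median 377) in the infused livers. All 8 lay below baseline, with a log2 fold change of -1.42 ± 0.52. CPT1A, the gate of mitochondrial fatty acid import, had 5781 and 11709 at baseline and from 961 to 6006 (median 3156), where arterial 3 lay inside the baseline range. The third lower member was BDH1, a ketone body enzyme, with -2.20, and CREB3L3, a fasting-induced factor of hepatocytes, was the higher one with 1.30. CAT, the peroxisomal catalase, had -1.46 while PRDX1, a peroxiredoxin, had 1.28 with all 8 livers above baseline. Without baseline 2 CPT1A was -0.82, against -1.36 with it, and CAT was -0.92. CREB3L3 was 0.81 without baseline 1a and 1.98 without baseline 2.

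Other hepatocyte functions had members on both sides of baseline. In the urea and amino acid list, HGD, which degrades homogentisate, had 975 and 719 at baseline and from 1066 to 5517 (median 3450) in the infused livers, a log2 fold change of 1.88 ± 0.62 without overlap. ARG1, the last enzyme of the urea cycle, had 32197 and 25486 and from 28751 to 100582 (median 63317), with 1.05 ± 0.49. NAGS, which makes the activator of the cycle, and MAT1A, the liver methionine adenosyltransferase, were lower with -1.06 and -1.25. The transcription factors PROX1 and TBX3 had all 8 livers below baseline, with -1.58 and -1.37, and RXRA, the partner of many nuclear receptors, was higher with 1.44. Without the 3 livers that stood apart RXRA was 0.60 with an unadjusted p of 0.158, and without baseline 2 MAT1A was -0.74. Of 17 cytochrome P450 list members 0 had an unadjusted p under 0.05, near the 2.45% higher and 1.7% lower over all genes. The same held for 22 interferon-stimulated and 17 cell cycle genes.

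**Figure D4:**
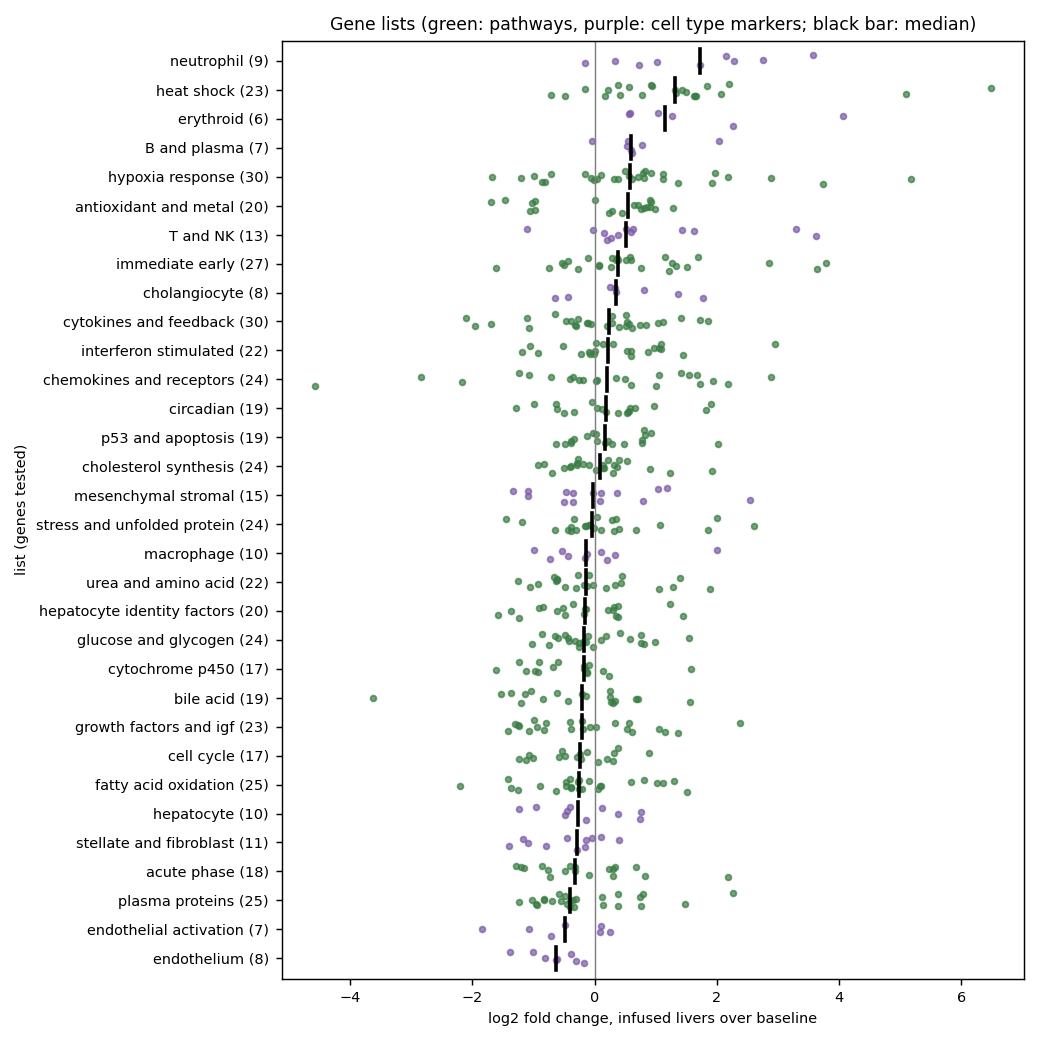
Each point is a gene, placed by its log2 fold change of infused livers over baseline, in rows by list with the number of genes tested in brackets, green for pathways and purple for cell type markers, and a black bar at the list median. Neutrophil and heat shock lists have the highest medians, 1.72 and 1.32, and the endothelium list the lowest, -0.62.

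Markers of blood-borne cells were higher in some infused livers. Neutrophil markers had a median log2 fold change of 1.72 over 9 genes, 8 of them positive, and 1.23 without the 3 livers that stood apart. Their summed level was 45.5 and 49.1 CPM at baseline and between 31.2 and 377 with a median of 112 in the infused livers, so the groups overlapped. S100A8, the neutrophil alarmin, had 158 and 161 at baseline and from 135 to 4216 (median 1016) after infusion, with 2.76 ± 1.28, and 1.76 without the 3 livers that stood apart. Arterial 3 and portal 3 lay below baseline for it. RETN, resistin, which pig granulocytes and monocytes express, had 3.58 ± 1.76 and an unadjusted p of 0.0606, and 1.48 without the 3 livers that stood apart.

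The summed level of 7 erythroid genes was 37.9 and 67.9 CPM at baseline and between 38.3 and 605 in the infused livers. All 6 erythroid genes tested had a positive log2 fold change, with a median of 1.16, and 0.18 without the 3 livers. GZMB, a granule protease of cytotoxic lymphocytes, had 3.09 and 7.38 at baseline and between 8.92 and 138 with a median of 52.97 in the infused livers. All 8 lay above, with a log2 fold change of 3.30 ± 1.17 and low counts at baseline. NKG7, another granule protein of these cells, had 1.43, also without overlap, and GNLY 3.62 with arterial 3 inside the baseline range. NKG7 and GNLY were 0.71 and 2.34 without the 3 livers, and GNLY was 6.85 without baseline 1a. Of 13 T and NK cell genes tested, 3 had all 8 livers above baseline, beside 4.29% of all genes. All 8 lay below for 1, beside 5.77%. The list median was 0.51, with 11 positive and 2 negative members. The 13 genes summed to 57.3 and 41.9 CPM at baseline and between 46.8 and 181 after infusion. Without the 3 livers the highest sum was 77.9.

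All 8 endothelial genes tested had a negative log2 fold change, as had 8345 of all 16481 genes tested. The list median was -0.62, and -0.43 without the 3 livers that stood apart. In the ischemic controls the list median over baseline was -0.31. The summed level of the 8 genes was 524 and 616 CPM at baseline. In the infused livers it was between 259 and 692 with a median of 336, so the groups overlapped. VWF, the von Willebrand factor of endothelium, had 99.5 and 1019 at baseline, far apart from each other, and from 74.2 to 577 (median 197) in the infused livers. Its log2 fold change of -1.39 ± 0.62 rests on baseline 2 and became 1.04 without that library. CLEC4G, a lectin of sinusoidal endothelium, had 3517 and 2992 at baseline and from 1709 to 2860 (median 1951), all 8 below, with -0.62 and an unadjusted p of 0.132. The summed level of the mesenchymal stromal list, which would hold reads of the infused cells if they were counted on pig genes, was 3891 and 4800 CPM at baseline and between 949 and 3475 in the infused livers. The list includes FN1 and POSTN, which liver cells also express. Gene by gene, the list median was -0.02, with 7 positive and 8 negative log2 fold changes among 15 genes tested. All 8 infused livers lay below baseline for 1 of them and above for 0, beside 5.77% and 4.29% of all genes. The part of these cell type levels in the gene results was not tested.

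The 15 genes above baseline with the lowest p, among genes with a symbol and no overlap, also held genes of leukocytes. RGS1, which damps chemokine receptor signals in lymphocytes (chromosome 10, bases 1147439 to 1151733), had 70.2 and 53.8 at baseline and from 199 to 649 (median 444) in the infused livers. Its log2 fold change was 2.78 ± 0.66 with an unadjusted p of 7.47e-04, the lowest among the higher genes, and 2.78 without the 3 livers. SLA, the Src-like adaptor of lymphocytes, had 196 and 149 and from 358 to 968 (median 511), with 1.64 ± 0.45. NOCT, nocturnin, a clock-linked phosphatase induced by feeding and stress, had 275 and 319 at baseline and from 419 to 2105 (median 1033) after infusion, with 1.83 ± 0.51. RGCC, a cell cycle regulator induced by complement, had 2.35, MBNL3, a splicing factor, 1.63, and CKB, the brain-type creatine kinase, 1.88. The others were ITPKC (1.83), BCAS4 (3.59), SSBP3 (1.58), KIFC3 (2.42) and the histone genes H2AC6 (3.46) and H1-10 (2.10), whose reads may be shared with near-identical copies. KIFC3 was 1.39 without the 3 livers and H2AC6 was 5.65 without baseline 1a. STC1, CXCR4 and HSPE1 completed the set.

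The 15 below baseline by the same rule, of which 14 are given, held several chromatin and nuclear genes beside FMO5, CYP7A1 and other liver enzymes. ANKRD11, a chromatin regulator (chromosome 6, bases 455856 to 612878), had 5319 and 4201 at baseline and from 882 to 2715 (median 1630) in the infused livers, with -1.49 ± 0.36 and an unadjusted p of 0.00102. LPGAT1, an acyltransferase of phospholipid synthesis (chromosome 9, bases 131383684 to 131505988), had 2283 and 4627 and from 689 to 2029 (median 1184), with -1.52 ± 0.37. ASXL1, a Polycomb-associated factor, had -1.20, PAXIP1, a subunit of histone methyltransferase complexes, -1.22, and ICE1, of the little elongation complex, -1.45. SUN1 of the nuclear envelope had -1.55. GPLD1, a phospholipase that hepatocytes secrete, had -1.96, and ACSS1, a mitochondrial acetyl-CoA synthetase, -1.81. The matrix genes ADAMTS1 and LTBP2 had -1.78 and -1.71, and SYNJ2 and PLEKHA6 -1.26 and -1.91. Several of these values depend on 1 baseline library. Without baseline 2 they were -0.87 for ACSS1, -0.98 for LPGAT1, -1.06 for LTBP2 and -0.75 for SYNJ2, and without baseline 1a -1.003 for ADAMTS1. These 30 genes were chosen for their values, so their lack of overlap is a description.

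Each route was also set against the same baseline libraries. By edgeR's adjusted p neither gave a gene under 0.05, and there were 375 genes at an unadjusted p under 0.05 after arterial infusion and 943 after portal infusion. The order of these counts turned to 580 and 542 without arterial 1, portal 1 and portal 4. With 1 library left out the arterial count ran from 89 (without baseline 2) to 600 (without arterial 3) and the portal count from 103 (without baseline 2) to 1584 (without portal 3). The arterial count was 167 without baseline 1a and 219 without arterial 1, and the portal count was 511 without portal 1, 557 without portal 4 and 481 without baseline 1a. DESeq2 called 12 and 20. FMO5 was -1.68 ± 0.50 after arterial and -2.92 ± 0.51 after portal infusion on the log2 scale. HSPE1 was 1.59 ± 0.45 and 1.06 ± 0.44, and BAG3 was 2.11 and 1.15. CYP7A1 was -2.93 ± 1.29 and -4.32 ± 1.34. The difference between routes was tested directly and gave 0 genes in edgeR and 1 in DESeq2. In edgeR 396 genes had an unadjusted p under 0.05. With 1 liver left out that count rose to 773 without arterial 1, 666 without portal 2 and 686 without portal 3. It fell to 299 without arterial 2, 386 without arterial 3, 298 without arterial 4, 307 without portal 1 and 337 without portal 4. The ischemic controls, against the same baseline, had -1.89 for FMO5, 1.41 for HSPE1, 1.87 for BAG3 and -3.59 for CYP7A1. As these comparisons share the baseline libraries, their values are set side by side only.

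**Figure D5:**
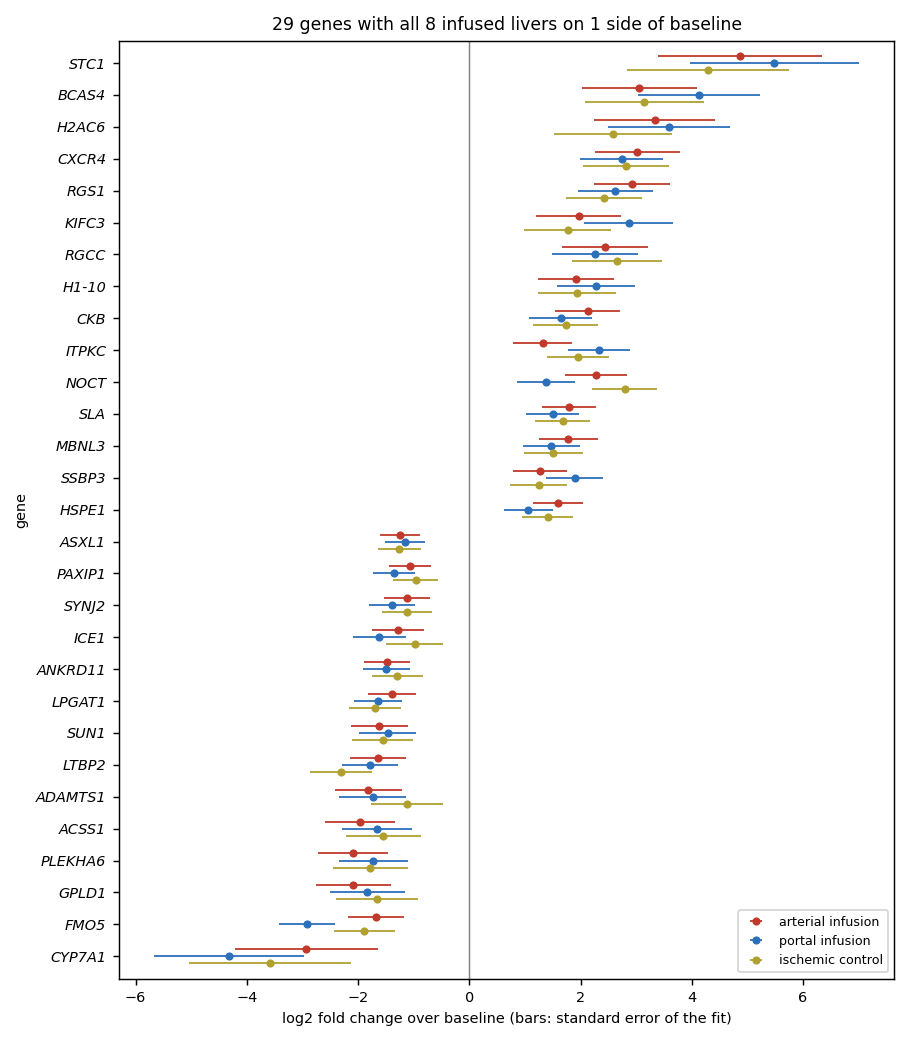
Log2 fold change over the same 2 baseline libraries for arterial infusion, portal infusion and ischemic controls. Shown are 29 of the 30 genes chosen by the rule on p and overlap. Bars are approximate standard errors derived from the log2 fold change and the test statistic. STC1 has the largest positive values and CYP7A1 the largest negative ones, and the error bars of the 3 groups overlap for most genes.

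Interferon-stimulated genes were the list in which the routes lay furthest apart, with 1 portal liver far above the rest for several members. Of 22 members, 9 were higher after portal than after arterial infusion at an unadjusted p under 0.05, beside 1.32% of all genes, and the list median over baseline was -0.45 after arterial and 1.01 after portal infusion. Without portal 3, 1 of 22 was higher. The count was also 1 without arterial 2, 2 without arterial 4, and 4 without arterial 1 or arterial 3, and the median difference of arterial minus portal infusion turned from -1.25 to 0.38 on the log2 scale only without portal 3. MX1, an antiviral GTPase picked with the next 2 genes after values were seen, was 34013 in portal 3 and between 276 and 2041 in the other 3 portal livers, beside 1601 and 1687 at baseline. RSAD2, the antiviral enzyme viperin, was 8863 in portal 3 and at most 139 in the others. ISG15, a ubiquitin-like modifier, was 6877 in portal 1, 13495 in portal 3, and 526 and 384 in portal 2 and 4, beside 281 and 273 at baseline. ISG15 did not rest on portal livers alone. With 1 library left out, its log2 fold change of infused livers over baseline was lowest without arterial 1, at 2.35, and highest without portal 4, at 3.15.

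Of the genes the study names from these samples 15 are given, and their values here are not independent evidence. The study's comparisons also differ from the one made here. It named CYP7A1, CXCR4, GZMB, PPARA and EPO from ischemia-reperfusion against baseline. The others came from samples with relatively high human B2M, its marker of the infused cells, against ischemic controls. CYP7A1, CXCR4, GZMB, PPARA, RETN and EPO are given above. CCL26, an eosinophil attractant, had 0.771 and 52.7 at baseline and from 0 to 25.0 (median 1.62) in the infused livers, and its direction turned with baseline 2 left out. MVD, of cholesterol synthesis, had 1.92, and CDC42EP5, a cytoskeletal effector, 1.43, and without the 3 livers that stood apart they had 0.21 and 0.21. ND4L, a mitochondrially encoded subunit of complex I, had 14701 and 19781 at baseline and from 2454 to 64367 (median 28393), a log2 fold change of 0.63 ± 0.86, and 1.06 without the 3 livers. ND4, a further subunit of complex I, had 0.68 ± 0.74. AK5, an adenylate kinase, had -1.16, which was -3.33 without arterial 1. The small nucleolar RNAs SNORD24 and SNORD21 had -1.52 and -0.48, and -0.93 and 0.19 without the 3 livers. SCN9A, a sodium channel, was 28.5 and 23.2 at baseline and at 0 in arterial 1, portal 1 and portal 4, the 3 livers with the fewest genes with a read, with a log2 fold change of -0.06 ± 1.78.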

How the data were processed

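Liver RNA was enriched for poly-A transcripts and sequenced as 150-base read pairs. The paper names the NucleoSpin RNA kit for extraction and the labels a miRNeasy kit. The authors removed low-quality reads, aligned the remainder with HISAT2 to Sscrofa11.1, and assigned reads to Ensembl genes with FeatureCounts, with versions not given in the sources used here. The deposited values are raw counts for 35670 genes, of which 17759 had a symbol, in 13 libraries of 18975413 to 35949178 reads, and 0 columns had no sample. No pair of replicates was a copy, with a chi-square per gene of at least 77.1.

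Groups came from the labels. edgeR 4.0.16 (R 4.3.3) fitted 4 groups over 13 libraries (filterByExpr, TMM, quasi-likelihood test, Benjamini-Hochberg, threshold 0.05) after a test on simulated data, with the mean of the infusion groups minus baseline as contrast. DESeq2 1.42.0 gave size factors for normalized counts and an alternative test, limma 3.58.1 voom and sva 3.50.0 a surrogate variable. An exact permutation test over the 45 choices of 2 libraries of 10 cannot go below 0.0222 and for genes named for lack of overlap restates that choice, so none is given. Counts are reads, not molecules, and where none is counted, up to 3 could have been missed.

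Named genes were the 15 higher and 15 lower without overlap and with the lowest p, up to 4 of each list with the lowest p, and genes the study names (ND4 was added after values were seen). Genes said to be picked after their values were seen are outside this rule, as are the list members given for their class. Results of 2 genes that met the rule are not reported here. RefSeq positions were matched by symbol for single matches. The members, the 21 pathway and 11 marker lists and the tests were chosen with earlier results of these data known. Where a symbol had several rows, the one with the most counts was used. Alternatives were other tools, normalizations and filters, a surrogate variable, all 11 livers at 6 h against baseline, the replicate number as a block, and libraries left out.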

Additional observations from a re-analysis of the deposited data

Results flagged for a closer look

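Within the groups of 4, a liver was taken as standing apart where the gap between the highest or lowest value and its nearest neighbour, as a share of the group's range, passed Dixon's critical value for 4 samples on the log2(normalized count + 1) scale. Over 260 group values of 130 named genes this held for 16, and chance alone gives about 1 in 20.

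Portal 1 accounted for 6 of them. It was the highest portal liver for BCAS4 (644 against 111 in the next), FOSL1 (812 against 65.0), H1-10 (4716 against 2224) and HSPE1 (10176 against 7373), and the lowest for GPLD1 (59.2 against 227) and ND4L (2454 against 24741). Portal 3 was highest for HSPH1 (7457 against 2109) and CCL26 (5.02 against 0), and lowest for S100A8 (145 against 898).

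Among arterial livers, arterial 3 was lowest for GNLY (3.24 against 146) and HSPE1 (6100 against 12252) and highest for NAGS (12128 against 3525). Arterial 4 was lowest for FOXO1 (683 against 882), a factor of the insulin response, and highest for IL1A (6.29 against 0). Arterial 2 was highest for PPP1R15A (3543 against 1177), and arterial 1 for AK5 (9.81 against 0). For IL1A, CCL26 and AK5 the gap is that between a few reads and none. No named gene had all arterial livers on one side of baseline and all portal livers on the other.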

How the results depend on the processing

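The count of 0 genes for infused livers against baseline stayed 0 with edgeR over the 10 libraries compared, with RLE or upper quartile scaling, with at least 10 counts in every library, without mitochondrial and small RNA genes, with 1 surrogate variable, with all 11 livers at 6 h, with the infused livers as 1 group of 8, without the 3 livers that stood apart, and with each library left out (0 to 0). It was 17 with DESeq2 over all libraries, 24 with DESeq2 over the 10 compared, 49 with voom and sample quality weights and 25 on unfiltered genes. Of these, 14 were shared between both DESeq2 runs, 7 between the 17 and the unfiltered 25, and 4 between the 17 and the 49. DESeq2 gave 12 for arterial infusion and 20 for portal infusion against baseline and 1 between routes, where edgeR gave 0 throughout, with each library left out 0 to 0. The cause of the difference between tools was not tested. Only 2 baseline libraries limit every comparison, and the 683 genes at an unadjusted p under 0.05 became 99 without baseline 2, 342 without baseline 1a and 1029 without portal 3.

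The direction turned for 13 named genes under some setting. With 1 surrogate variable the log2 fold change was -0.65 for CCL3L1, -0.13 for CDC42EP5, -0.10 for IFI6, -0.12 for MVD, 1.44 for SCN9A and 0.51 for SNORD21. With all 11 livers it was 0.0383 for AK5, 1.65 for IL1A and 3.55 for TNF. With voom it was -0.0409 for CCL3L1 and 0.11 for SCN9A, with DESeq2 over 10 libraries -0.34 for MX1 and -1.36 for RSAD2, and without the 3 livers 0.65 for SCN9A and 0.19 for SNORD21. With a library left out, values ran from -4.63 to 2.01 for CCL26, from -2.27 to 1.04 for VWF, from -0.71 to 0.14 for SCN9A, from -0.41 to 1.29 for MX1 (lowest without portal 3) and from -1.72 to 1.18 for RSAD2 (lowest without portal 3). CCL26 and VWF turned without baseline 2.

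With the replicate number as a block over the 8 infused livers, the route comparison gave 0 genes, as without it, and 254 at an unadjusted p under 0.05 against 396. The deviations of same-numbered livers correlated at 0.417, 0.290, 0.428 and -0.0964 for numbers 1 to 4, over 0.1 for 3 of 4 pairs, and 4 of 8 livers correlated best with their own number. The labels name no animal or day behind a number, and the numbers were not taken to pair the livers. No analysis paired with baseline was possible, because the labels do not say which animals gave the baseline libraries.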
